A study of Mus musculus with 14 samples.

Results

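Cells that store fat release it again through a short chain of lipases, and 7 genes of that chain were followed in mouse liver. They are the triglyceride lipase genes Pnpla2 and Pnpla3, the regulator genes Abhd5 and G0s2, and Lipe, Mgll and Lipa, whose products act on diglycerides, monoglycerides and lysosomal lipid. The genes were taken by symbol from the deposited results table and joined by Ensembl identifier to the count table. All 7 were found among its 37681 genes, and all 7 passed the filter on low counts that left 17223 genes to test.

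Liver RNA of 14 mice was sequenced, 1 library per mouse. The comparison is between diets: 7 mice ate food high in fat and sucrose (HFHS) and 7 ate food low in both (LFLS). The sources used here do not give strain, sex, age or length of feeding, and no genetic change or drug is named for either diet. Libraries are called by diet and number, HFHS 1 to 7 and LFLS 1 to 7. Sample titles begin with the number 1 in libraries 1 to 4 of each diet and with the number 2 in libraries 5 to 7, and the labels do not say what this number marks.

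Triglyceride in a lipid droplet is split in steps, each freeing 1 fatty acid: adipose triglyceride lipase acts first, hormone-sensitive lipase on the diglyceride, and monoglyceride lipase last. The first step is set by a coactivator and an inhibitor that bind adipose triglyceride lipase. In the liver, droplets are also taken up into lysosomes, where an acid lipase splits their triglyceride and cholesteryl ester.

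Total counts ran from 18.2 M to 52.8 M (M, mega) per library. Levels are CPM, a gene's count scaled to the size of its library with edgeR's TMM factors, and the p-values measure the spread between separate mice. Hepatocyte markers summed to 55340 to 97590 CPM in HFHS livers and 67160 to 113000 CPM in LFLS livers, with HFHS 1 lowest. Most of this sum was Alb, at 46780 to 85520 CPM in HFHS livers and 53830 to 93070 CPM in LFLS livers. The 6 adipocyte markers summed to 14.6 to 28.8 CPM in HFHS livers and 8.62 to 29.8 CPM in LFLS livers. Of them Adipoq, Lep, Retn and Plin1 were each below 1 CPM in every library, and Cfd and Fabp4 made up nearly all of the sum. The 13 exocrine pancreas markers summed to 16.0 to 437 CPM in HFHS livers and 18.7 to 1622 CPM in LFLS livers, with LFLS 2 highest. A score of exocrine pancreas markers, the pancreas score, was the covariate of an alternative fit. In whole tissue, fewer cells of a type and less RNA per cell cannot be told apart.

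Per length of transcript, G0s2 was the most abundant of the 7 and Lipe the least. The mean level over all 14 livers was 243 ± 78.0 CPM per kb (SD, n = 14) for G0s2, 96.4 ± 18.2 for Lipa and 68.9 ± 9.74 for Mgll. Pnpla2 followed at 32.7 ± 8.72 CPM per kb. At the bottom, Pnpla3 at 12.4 ± 3.77, Abhd5 at 10.4 ± 1.16 and Lipe at 8.98 ± 2.61 CPM per kb overlapped within their SDs and had no clear order. Lengths were those of the longest annotated transcript, so genes with shorter liver transcripts are placed too low. The smallest count of any of the 7 in any library was 196, for Pnpla3, and the largest 19041, for Lipa.

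**Figure D1:**
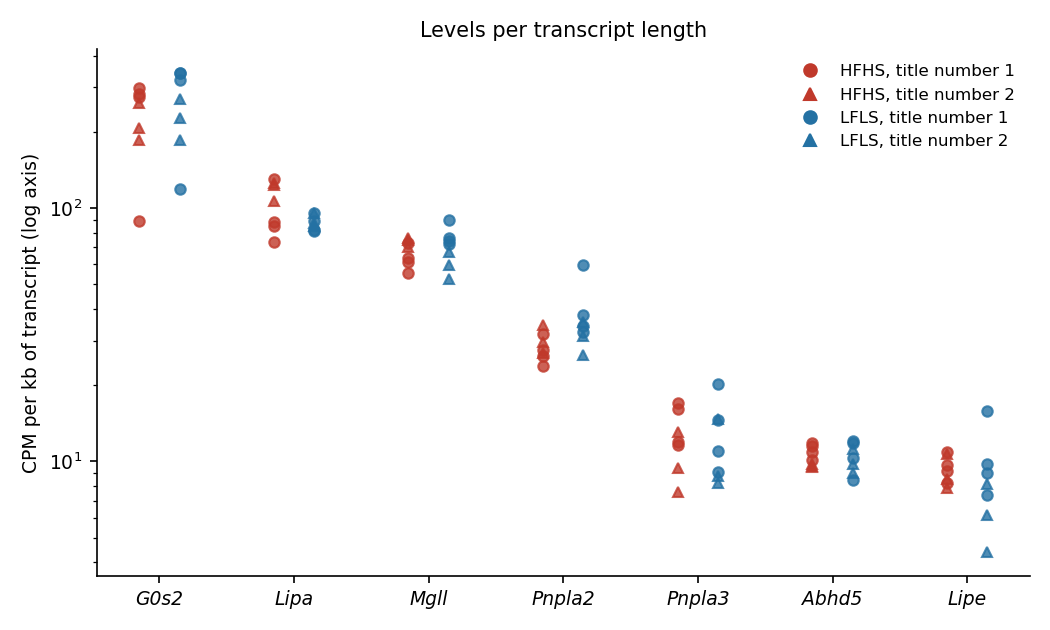
Level of each of the 7 transcripts per length in every liver, as CPM per kb on a log axis, with genes ordered by their mean. Red points are HFHS libraries and blue points LFLS libraries, circles title number 1 and triangles title number 2. G0s2 lies highest, with a mean of 243 CPM per kb, and Pnpla3, Abhd5 and Lipe overlap at the bottom.

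The bases before the start sites of Pnpla2 and Lipe are shown because their levels were correlated within diet and title number (Pearson r 0.76). That pair did not pass its test in every setting, as given below. The bases before Pnpla3 and Fasn are shown because Fasn, the fatty acid synthase gene, was among the 2 genes most like Pnpla3. They are the 250 bases before each annotated start, from RefSeq on GRCm38.p6, and capitals mark motifs found on either strand. The letters searched were GGGCGG for the GC box and CCAAT for the box of that name. The E-box was CACGTG, the sterol element was searched as TCACNCCAC, and TGTTTAC stood for the core that FOXO factors bind. Lipe has 2 annotated starts, both on the minus strand.
Pnpla2, chr7:141454938-141455187, plus strand: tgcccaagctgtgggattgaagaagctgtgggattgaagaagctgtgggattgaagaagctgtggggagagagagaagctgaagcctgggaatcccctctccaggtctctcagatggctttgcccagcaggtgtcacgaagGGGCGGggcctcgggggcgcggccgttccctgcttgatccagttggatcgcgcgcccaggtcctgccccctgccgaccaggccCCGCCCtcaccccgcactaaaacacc
Lipe, upstream start, chr7:25395988-25396237, minus strand: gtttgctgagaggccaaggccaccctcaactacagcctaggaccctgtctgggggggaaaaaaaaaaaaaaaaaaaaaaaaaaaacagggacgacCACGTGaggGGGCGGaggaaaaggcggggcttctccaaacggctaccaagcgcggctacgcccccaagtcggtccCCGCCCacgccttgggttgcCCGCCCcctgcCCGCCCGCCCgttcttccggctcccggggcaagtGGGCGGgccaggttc
Lipe, downstream start, chr7:25390113-25390362, minus strand: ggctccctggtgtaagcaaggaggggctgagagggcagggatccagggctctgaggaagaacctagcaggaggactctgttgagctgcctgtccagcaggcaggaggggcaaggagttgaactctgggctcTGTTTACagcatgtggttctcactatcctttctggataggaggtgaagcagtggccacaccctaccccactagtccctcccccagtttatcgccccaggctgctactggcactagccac
Pnpla3, chr15:84167566-84167815, plus strand: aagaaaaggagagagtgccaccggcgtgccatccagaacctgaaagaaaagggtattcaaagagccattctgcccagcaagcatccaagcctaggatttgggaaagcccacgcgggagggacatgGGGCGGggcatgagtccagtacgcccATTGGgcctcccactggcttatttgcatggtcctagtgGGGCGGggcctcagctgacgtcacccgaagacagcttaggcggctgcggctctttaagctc
Fasn, chr11:120824548-120824797, minus strand: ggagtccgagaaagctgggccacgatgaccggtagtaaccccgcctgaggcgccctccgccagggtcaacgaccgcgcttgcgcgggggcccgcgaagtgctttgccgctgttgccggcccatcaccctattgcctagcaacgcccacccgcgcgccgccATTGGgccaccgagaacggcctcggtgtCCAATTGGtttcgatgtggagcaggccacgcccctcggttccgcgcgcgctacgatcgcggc
The Pnpla2 window held 2 GC boxes, and the upstream Lipe window held 6 of them and 1 E-box. The downstream Lipe window held no GC box and 1 FOXO core, 119 bases before the start. Pnpla3 had 2 GC boxes and 1 CCAAT box, and Fasn had 3 CCAAT boxes, of which 2 share bases. Over 32851 windows of the same length, 32.7% held a GC box, 33.8% a CCAAT box, 6.02% an E-box, 3.17% a FOXO core and 1.05% the sterol element, which none of the 5 windows held. Such matches describe letters and do not show binding.

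None of the 7 genes passed the test for a difference between the diets. By edgeR's quasi-likelihood F test after Benjamini-Hochberg adjustment over all tested genes, 0 of 7 were called, against 2.81% of the 17223 genes (484). DESeq2 also called 0 of the 7, against 1.28% of genes over the whole table and 7.3% when fitted on the tested genes. Limma voom called 1 of the 7, against 19.0% of all genes. An unadjusted p under 0.05 was reached by 1 of the 7, against 19.6% of all genes. The fitted log2 fold change of HFHS over LFLS was above 0 for 4 of the 7 and below 0 for 3, with a median of 0.0083 against -0.0087 over all genes. The median size of the log2 fold change, without its sign, was 0.10 for the 7 and 0.18 over all genes. With the title number as a block, edgeR called 0 of the 7, against 8.94% of all genes, and the number itself separated 28.8% of all genes in that fit. The CPM ranges of the diets overlapped for all 7, where 1.65% of all genes showed no overlap. Each interval given below is a 95% interval for that gene alone.

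**Figure D2:**
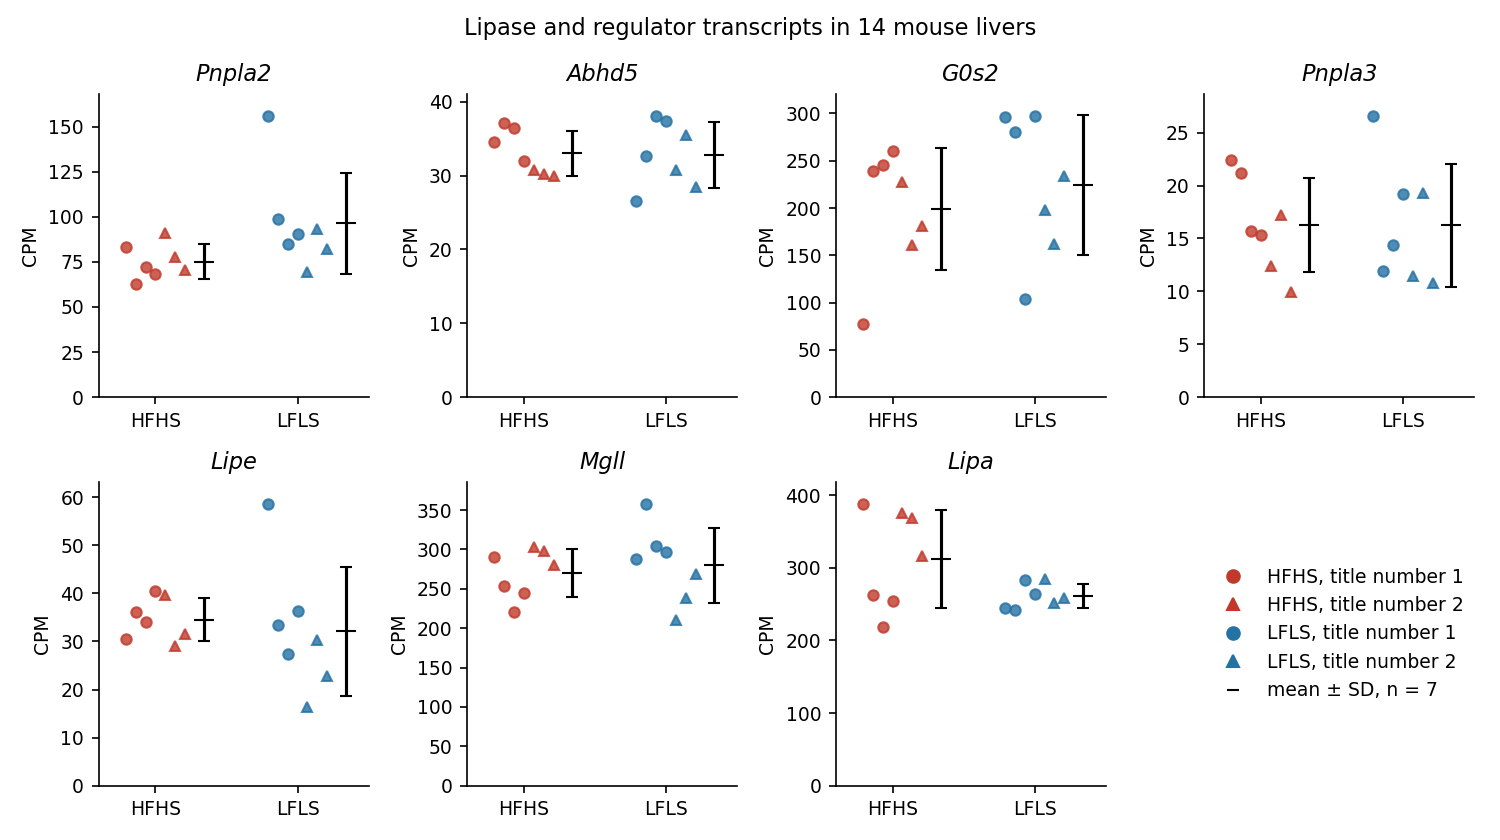
CPM of each of the 7 transcripts in every liver, HFHS libraries in red on the left of each panel and LFLS libraries in blue on the right, circles for title number 1 and triangles for title number 2. Bars give the mean and SD of 7 livers per diet. The diets overlap in all 7 panels, and LFLS 1 stands at 156 CPM for Pnpla2.

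Pnpla2 encodes adipose triglyceride lipase, which makes the first cut in triglyceride. Its level ran from 62.5 CPM through a median of 72.3 to 90.9 CPM in HFHS livers, and from 69.3 through 90.3 to 156 CPM in LFLS livers. The diets overlapped, although 6 of 7 HFHS libraries lay below the LFLS median, and LFLS 1 stood far above the next LFLS library at 99.0 CPM. The mean was 75.1 ± 9.64 CPM in HFHS and 96.4 ± 27.9 CPM in LFLS (SD, n = 7 each), a log2 fold change of -0.36 ± 0.15 (SE) with an interval of -0.68 to -0.042. The adjusted p was 0.199 by edgeR's quasi-likelihood F test after Benjamini-Hochberg adjustment, the unadjusted p 0.0292. Limma voom with quality weights called it at -0.33 (limma's adjusted p 0.0465, while the adjusted p of all 28 alternatives ran from 0.0465 to 0.934), a setting that called 19.0% of all genes. Without LFLS 1 the log2 fold change was -0.20.

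The fitted diet difference of Pnpla2 was larger in size among number 1 than among number 2 libraries, but this contrast was not called. The log2 fold change was higher by 0.55 ± 0.27 (SE) in number 2, with an interval of -0.027 to 1.13. Its adjusted p was 0.240 by edgeR's quasi-likelihood F test after Benjamini-Hochberg adjustment. Among number 1 libraries the 4 HFHS livers held 62.5 to 83.4 CPM and the 4 LFLS livers 85.0 to 156 CPM, with no overlap, as 10.5% of all genes showed in that direction. Among number 2 libraries the 3 HFHS livers held 70.5 to 90.9 CPM and the 3 LFLS livers 69.3 to 93.2 CPM. The log2 fold changes were -0.57 in number 1 and -0.028 in number 2, and neither was called (adjusted p 0.0874 and 0.934 by edgeR's quasi-likelihood F test after Benjamini-Hochberg adjustment). Pnpla2 is rich in GC, at 57.0% of its transcript, and LFLS 1 was the library where a gene's deviation rose most with its GC content, with a correlation of 0.60 across genes. With an offset for GC per library the log2 fold change was -0.22, and the part of GC in the difference was not tested further.

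Abhd5 encodes the coactivator of adipose triglyceride lipase, also called CGI-58, which patients with neutral lipid storage disease with ichthyosis lack. Over all 14 livers Abhd5 had the smallest coefficient of variation of the 7 (11.1%), although within LFLS that of Lipa was smaller (6.52%, against 13.6% for Abhd5). Its level was 29.9, 32.0 and 37.2 CPM (lowest, median and highest) in HFHS livers and 26.6, 32.6 and 38.1 CPM in LFLS livers. The HFHS values lay wholly inside the LFLS range. The transcript A730085K08Rik overlaps exons of Abhd5 by up to 950 bases on the opposite strand, and without strand their reads cannot be told apart. For Abhd5 the log2 fold change was 0.0115 ± 0.097 (SE), and the interval of -0.19 to 0.22 corresponds to a fold of 0.874 to 1.16. Adjusted p was 0.962 by edgeR's quasi-likelihood F test after Benjamini-Hochberg adjustment.

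G0s2 encodes a small protein that binds and inhibits adipose triglyceride lipase. Over all 14 livers it had the widest ratio of highest to lowest level of the 7, although within LFLS that ratio was wider for Lipe. G0s2 ran from 77.3 CPM through a median of 227 to 260.5 CPM in HFHS livers and from 104 through 234 to 297 CPM in LFLS livers. In each diet a single liver stood low, HFHS 1 and LFLS 3, and the other livers held at least 161 CPM in HFHS and 162 CPM in LFLS. The log2 fold change was -0.18 ± 0.26 (SE), with an interval of -0.73 to 0.38 and an adjusted p of 0.743 by edgeR's quasi-likelihood F test after Benjamini-Hochberg adjustment. Without HFHS 1 it was -0.037, and without LFLS 3 it was -0.30. Among number 1 and number 2 libraries it was -0.23 and -0.057, and the same values for Abhd5 were 0.073 and -0.050.

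The levels of the inhibitor and the coactivator were also set against the lipase within each liver. The ratio of G0s2 to Pnpla2 CPM had a median of 7.73 in HFHS livers (2.79 to 11.5) and 8.53 in LFLS livers (3.69 to 9.93). The ratio of Abhd5 to Pnpla2 CPM had a median of 0.353 in HFHS livers (0.282 to 0.495) and 0.317 in LFLS livers (0.142 to 0.372). Both ratios overlapped between the diets, and neither was tested.

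Pnpla3 encodes a droplet protein close to adipose triglyceride lipase, which in humans carries a common variant tied to fatty liver. Its level was 9.98, 15.7 and 22.4 CPM (lowest, median and highest) in HFHS livers and 10.8, 14.4 and 26.6 CPM in LFLS livers. The diets covered nearly the same range, with HFHS 7 and LFLS 7 lowest and HFHS 1 and LFLS 1 highest. The log2 fold change was 0.0083 ± 0.22 (SE), but the interval ran from -0.46 to 0.47, or a fold of 0.729 to 1.39. Adjusted p was 0.988 by edgeR's quasi-likelihood F test after Benjamini-Hochberg adjustment. The log2 fold change was 0.067 among number 1 libraries and -0.051 among number 2 libraries. An annotated gene on the same strand, Gm49513, shares up to 105 bases of exon with Pnpla3.

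Lipe encodes hormone-sensitive lipase, which acts mainly on diglyceride and on cholesteryl ester. Its level was 29.1, 34.1 and 40.6 CPM (lowest, median and highest) in HFHS livers and 16.3, 30.3 and 58.5 CPM in LFLS livers. All HFHS values lay inside the LFLS range, whose ends were LFLS 5 and LFLS 1. The log2 fold change was 0.10 ± 0.21 (SE), with an interval of -0.34 to 0.54 and an adjusted p of 0.822 by edgeR's quasi-likelihood F test after Benjamini-Hochberg adjustment. It was 0.31 without LFLS 1, -0.12 among number 1 libraries and 0.53 among number 2 libraries, none of them called. The transcript 4732471J01Rik overlaps exons of Lipe by up to 453 bases on the opposite strand, and the labels do not say that the library kit kept strand, so their reads cannot be told apart.

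Mgll encodes monoglyceride lipase, which frees the last fatty acid and also breaks down the endocannabinoid 2-arachidonoylglycerol. The level was 221, 279.7 and 303 CPM (lowest, median and highest) in HFHS livers and 210.1, 288 and 357 CPM in LFLS livers. The diets overlapped fully, and the log2 fold change was -0.053 ± 0.12 (SE) with an interval of -0.30 to 0.20 (adjusted p 0.839 by edgeR's quasi-likelihood F test after Benjamini-Hochberg adjustment). Within title numbers the fitted values had opposite signs, -0.29 in number 1 and 0.30 in number 2. Among number 2 libraries the HFHS livers held 279.7 to 303 CPM and the LFLS livers 210.1 to 268 CPM, without overlap, as 13.1% of all genes showed in that direction. Among number 1 libraries the HFHS livers held 221 to 290.1 CPM and the LFLS livers 288 to 357 CPM, an overlap through HFHS 1 alone.

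The difference between the title numbers was itself tested for each gene. The diet effect on Mgll was greater by 0.60 ± 0.17 (log2, SE) in number 2 than in number 1, with an interval of 0.23 to 0.96. Its unadjusted p was 0.00339 and its adjusted p 0.0765 by edgeR's quasi-likelihood F test after Benjamini-Hochberg adjustment, so 0 of 7 genes were called, against 0.883% of all genes. Mgll was the 1 gene of the 7 with an unadjusted p under 0.05, against 22.6% of all genes. DESeq2 gave Mgll an adjusted p of 0.997 for the same term and called 0 of the 7, as it called 0.0% of all genes.

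Lipa encodes lysosomal acid lipase, whose loss in humans causes Wolman disease. Its level was 219, 316 and 387 CPM (lowest, median and highest) in HFHS livers and 242, 258 and 284 CPM in LFLS livers. HFHS 1, 5, 6 and 7 lay above every LFLS library and HFHS 3 lay below every one, so the HFHS livers enclosed the LFLS range. The mean was 311.5 ± 67.4 CPM in HFHS and 261 ± 17.0 CPM in LFLS (SD, n = 7 each), a log2 fold change of 0.25 ± 0.13 (SE) with an interval of -0.015 to 0.52. Adjusted p was 0.281 by edgeR's quasi-likelihood F test after Benjamini-Hochberg adjustment, the unadjusted p 0.0621. Among number 2 libraries all 3 HFHS livers, at 316 to 375 CPM, exceeded the 3 LFLS livers at 252 to 284 CPM. The same lack of overlap in that direction was shown by 13.1% of all genes. The log2 fold change was 0.14 in number 1 and 0.42 in number 2, with adjusted p values of 0.626 and 0.0973 by edgeR's quasi-likelihood F test after Benjamini-Hochberg adjustment. Fitted within a title number, 0 of the 7 genes were called in either number, against 8.49% of all genes in number 1 and 1.58% in number 2.

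**Figure D3:**
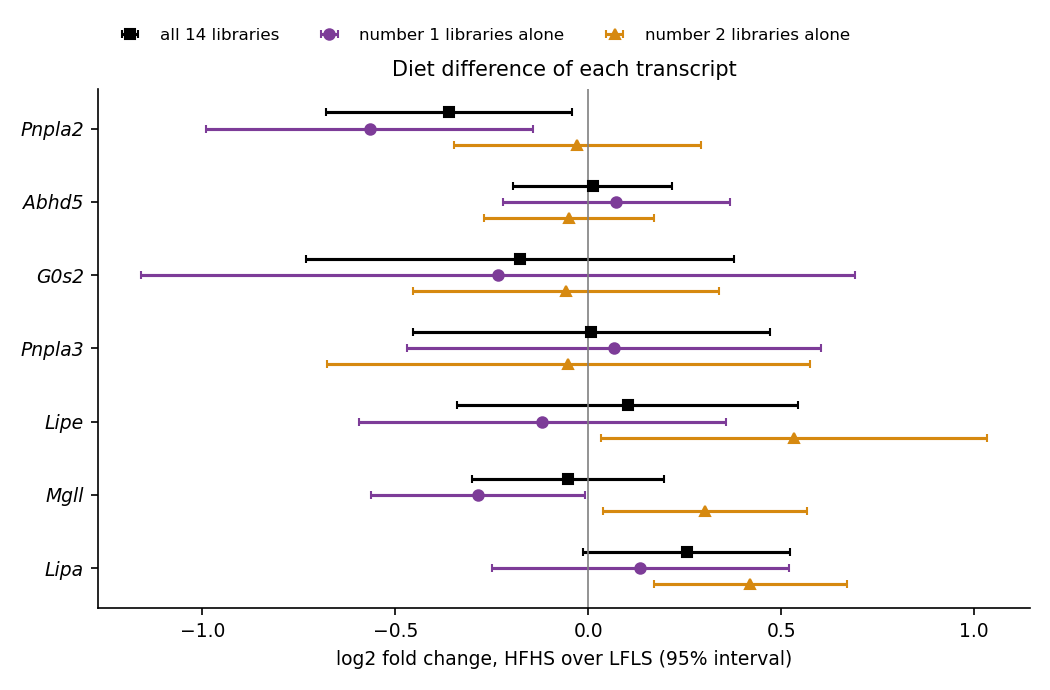
Log2 fold change of HFHS over LFLS for each gene with its 95% interval, from all 14 libraries (black squares), number 1 libraries (purple circles) and number 2 libraries (orange triangles). Values for all libraries run from -0.36 for Pnpla2 to 0.25 for Lipa, and the Mgll and Lipe values within the title numbers lie on opposite sides of 0.

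The authors' deposited table, from DESeq, gave the same order at the ends of the set. Its log2 ratios for Pnpla3 (-0.07), Abhd5 (-0.08) and Lipe (-0.05) were below 0, where edgeR's values were above 0. For G0s2 (-0.3) and Mgll (-0.16) both were below 0. DESeq2 over the whole count table gave -0.074 for Pnpla3, -0.080 for Abhd5 and -0.046 for Lipe. In that fit the median over the tested genes was -0.11, against -0.0087 with edgeR. The part of scaling in these signs was not tested. In the authors' deposited table the log2 ratio of HFHS over LFLS was -0.49 for Pnpla2 and 0.15 for Lipa, and every adjusted p of the 7 genes stood at 1.

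Variation between livers of a diet was shared by some of the genes. Deviations of log2 CPM from the mean of the same diet and title number were compared for all 21 pairs of the 7 genes over 14 livers, and 2 pairs passed a permutation test with Benjamini-Hochberg adjustment. Removing the group means leaves fewer than 14 independent deviations, which the test did not allow for. Its p-values may therefore be too small, and whether the 2 pairs would pass a stricter test was not tested. Pnpla2 and Lipe, the lipases of the first and second cut, deviated together. Their Pearson r was 0.76 (permutation p 0.00142, adjusted 0.0256) and their Spearman rho 0.54 (permutation p 0.0473, adjusted 0.461). Leaving out HFHS 1 and LFLS 1, whose Pnpla2 deviations lay farthest from the median deviation, gave an r of 0.78. HFHS 1 itself ran against the relation. It stood above the mean of its diet and title number for Pnpla2 (83.4 against 71.6 CPM) and below it for Lipe (30.55 against 35.3 CPM). The r without LFLS 1 alone was not tested. The r was 0.72 among number 1 libraries and 0.91 among number 2 libraries. Both transcripts are GC-rich (57.0% and 55.6%), and after the GC trend of each library was removed the r was 0.66 with an adjusted permutation p of 0.0977. It fell to 0.35 when LFLS 1 and LFLS 3 were then left out. Taken from the diet means alone, r was 0.79 (adjusted permutation p 0.0552), and 0.20 without LFLS 1 and LFLS 5. The pair passed the adjusted test in neither of these settings.

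G0s2 and Lipa deviated in opposite directions, with a Pearson r of -0.74 (permutation p 0.00244, adjusted 0.0256) and a Spearman rho of -0.61 (permutation p 0.0224, adjusted 0.461). The relation rested on HFHS 1 and LFLS 3, the livers with the least G0s2, without which r was -0.29. It was -0.84 among number 1 libraries, which include both, and 0.26 among number 2 libraries. The pair did not pass the adjusted permutation test from the diet means alone (r -0.60, adjusted p 0.225) or with the GC trend removed (r -0.74, adjusted p 0.0622). HFHS 1 also had the lowest sum of hepatocyte markers, 55340 CPM and mostly Alb, and the highest sum of stellate cell markers, 493 CPM. In LFLS 3 the hepatocyte sum was 79860 CPM, inside the LFLS range of 67160 to 113000 CPM. The stellate sum of LFLS 3 was 279 CPM, inside the LFLS range of 236 to 307 CPM. The part of these sums in the relation was not tested.

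**Figure D4:**
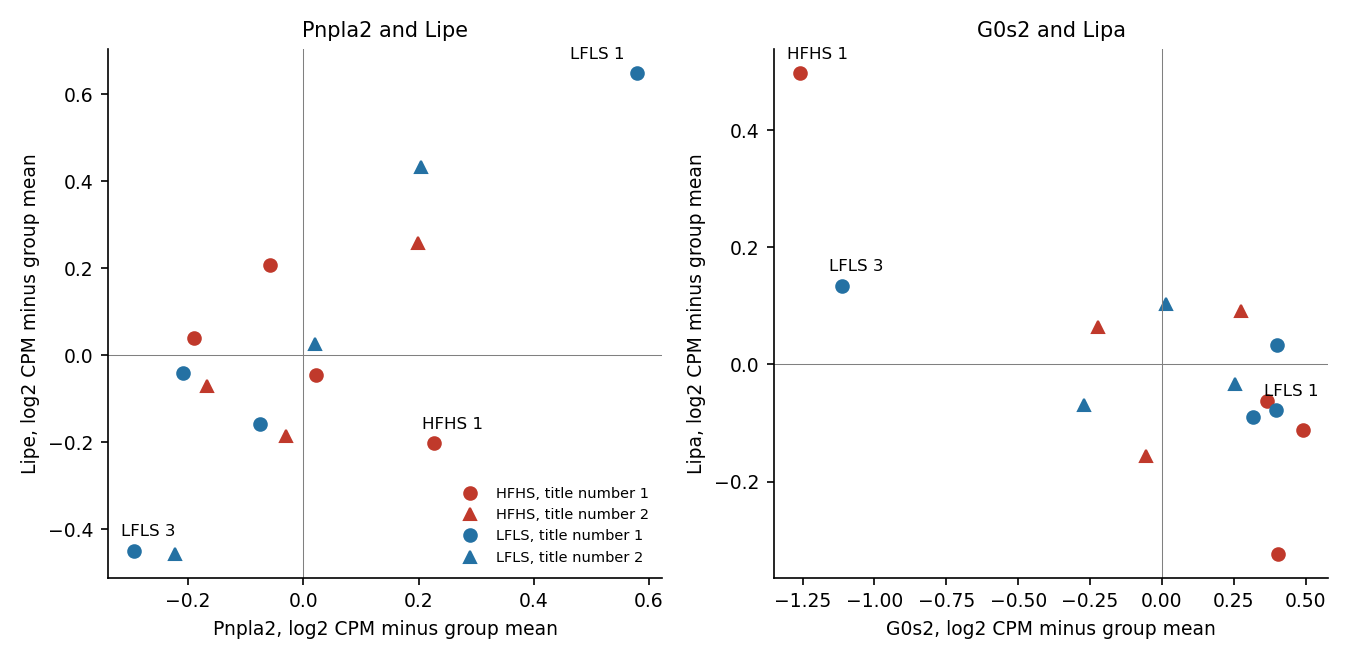
Deviation of log2 CPM from the mean of the same diet and title number, for Lipe against Pnpla2 (left) and Lipa against G0s2 (right), 1 point per liver. Red points are HFHS and blue points LFLS, circles title number 1 and triangles title number 2. Pearson r is 0.76 on the left and -0.74 on the right, where HFHS 1 and LFLS 3 stand apart.

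Over all 14 livers, the transcripts whose log2 CPM was most like each of the 7 are given by Pearson r and Spearman rho as a description. Pnpla3 was most like the desaturase family gene Fads3 (r 0.92, rho 0.94) and Fasn (r 0.90, rho 0.91), which makes palmitate. Pnpla2 was most like Tpcn1, an endolysosomal channel gene (r 0.95, rho 0.95), and SNORD59 (r 0.94, rho 0.89). Lipe was most like the overlapping 4732471J01Rik (r 0.97, rho 0.94) and Mpst, a sulfurtransferase gene (r 0.93, rho 0.70). Lipa was most like the transcription factor gene E2f3 (r 0.90, rho 0.93) and Fermt1 (r 0.90, rho 0.93), and Mgll like Gm5540 (r 0.91, rho 0.90) and Cux1 (r 0.88, rho 0.88). G0s2 was most like Epha2, a receptor tyrosine kinase gene (r 0.82, rho 0.94), and Grip1 (r 0.82), whose rho of 0.32 was far lower. Abhd5 was most like Gm16045 (r 0.89, rho 0.85) and Kirrel3 (r 0.79, rho 0.76), both at under 2 CPM. The same 14 libraries enter every such value, and the part of depth and GC content in them was not tested.

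Other genes around lipolysis were counted in 7 lists of 166 symbols, of which 160 were tested. By edgeR's quasi-likelihood F test after Benjamini-Hochberg adjustment 1 of the 160 rose and 2 fell on HFHS, or 1.875%, against 2.81% of all genes (1.37% higher and 1.44% lower). DESeq2 called 8 of the 166 over the whole table (1.28% of all genes) and 18 of the 160 when fitted on the tested genes (7.3% of all genes). Limma voom called 37 of the 160, against 19.0% of all genes. The median log2 fold change of the 160 was -0.0115.

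The 2 genes that fell belong to the hormonal control of lipolysis, where 0 rose, 2 fell and 24 of 26 were not called. Over all genes edgeR called 2.81%. In this list 3 of the 26 had an unadjusted p under 0.05, against 19.6% of all genes. DESeq2 on the tested genes called 2 of the 26, against 7.3% of all genes, and limma voom called 4, against 19.0%. Irs2, an adaptor of the insulin receptor, averaged 13.5 ± 3.55 CPM in HFHS and 30.3 ± 9.20 CPM in LFLS (SD, n = 7 each), and its ranges of 6.95 to 18.2 CPM in HFHS and 21.9 to 49.1 CPM in LFLS did not overlap. The change was -1.17 ± 0.20 (log2, SE; adjusted p 0.00943 by edgeR's quasi-likelihood F test after Benjamini-Hochberg adjustment) and stayed called whichever 1 library was left out. The change was -1.13 among number 1 libraries, where it was called, and -1.19 among number 2 libraries, where it was not (adjusted p 0.0707 in edgeR). Adrb3, the beta-3 adrenergic receptor gene, averaged 4.92 ± 2.57 CPM in HFHS and 11.0 ± 3.95 CPM in LFLS (SD, n = 7 each), a change of -1.16 ± 0.28 (adjusted p 0.0386, same test in edgeR). Leaving out any of HFHS 1, 2, 5, 6 and 7 or LFLS 1, 2, 3, 5 and 7 ended that call, as did fitting without a filter or on number 1 libraries alone. The change was -0.91 in number 1 and -1.61 in number 2.

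Droplet proteins and the COPI carriers that gate lipase access had 1 rise, 0 falls and 22 genes not called of 23. The same edgeR test called 2.81% of all genes. An unadjusted p under 0.05 was reached by 8 of the 23, against 19.6% of all genes. DESeq2 on the tested genes called 7 of the 23, against 7.3% of all genes, and limma voom called 5, against 19.0%. With the title number as a block edgeR called 4, against 8.94%. The riser was Cidea, a gene of droplet fusion, whose values ranged over 1.14 to 40.9 CPM in HFHS and 0.479 to 8.58 CPM in LFLS. Its log2 fold change was 3.11 ± 0.74 (SE; adjusted p 0.0354 by edgeR's quasi-likelihood F test after Benjamini-Hochberg adjustment), and leaving out any of HFHS 1, 2, 5, 6 and 7 or LFLS 2, 4, 5 and 7 ended the call. Cidea was also not called with the title pairs as a block, by limma voom, without a filter or among number 1 libraries alone. It was 2.30 among number 1 and 4.50 among number 2 libraries. Plin5, which tethers adipose triglyceride lipase and its coactivator at the droplet, averaged 45.9 ± 4.98 CPM in HFHS and 64.6 ± 13.6 CPM in LFLS (SD, n = 7 each) and missed the test without a block (log2 -0.49, adjusted p 0.0532 in edgeR). Plin5 was called lower with the title number or the title pairs as a block, by limma voom and by DESeq2 on the tested genes, and its adjusted p over all edgeR, limma and DESeq2 alternatives ran from 0.00387 to 0.245. Gbf1 had a log2 fold change of -0.36 and Plin4 of 1.19, with adjusted p values of 0.0811 and 0.131 in edgeR.

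The other lists held no called gene by edgeR's quasi-likelihood F test after Benjamini-Hochberg adjustment without a block. With the title number as a block the same test called 5 hydrolases, 2 vascular genes, 4 lysosomal genes, 1 PPAR alpha target and 1 lipogenic gene, and 19 of the 160 genes of all lists, against 8.94% of all genes. Of the other neutral lipid hydrolases 0 of 26 were called, 8 had an unadjusted p under 0.05, and DESeq2 called 2 on the tested genes and limma voom 10. Over all genes, 19.6% had such a p, DESeq2 on the tested genes called 7.3% and limma voom 19.0%. Counts of the lists that follow are to be read against the same shares. The smallest p values of the hydrolases belonged to Ces3b (log2 -1.07), Pnpla6 (-0.34), Ces3a (-0.49) and Pnpla7 (-0.44), and reads of the closely similar carboxylesterase genes may be shared between them. Of the rest with an unadjusted p under 0.05, Ces2a was also lower (-0.41), while Ces1e (0.41), Ces1g (0.47) and Ces1d (0.77) were higher. The median log2 fold change of this list was -0.0. DESeq2 over the whole table called 5 of the hydrolases, of which 4 (Lipf, Lipk, Lipm and Lipn) were below the filter on low counts. Those 4 neighbouring genes had nearly the same counts, 31 to 33 in HFHS 1, 10 in HFHS 3, 32 in HFHS 6 and the table minimum of 1 in every other library, and so are not 4 separate observations.

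Among 16 vascular lipases and their regulators 0 were called, 3 had an unadjusted p under 0.05, and DESeq2 called 1 on the tested genes and limma voom 2. DESeq2 over the whole table called 0 in this list and in the 3 that follow. Apoa5, which promotes triglyceride clearance, had a log2 fold change of -0.53 (adjusted p 0.0697 in edgeR) and hepatic lipase, Lipc, of -0.31. For 27 genes of the lysosome and lipophagy edgeR called 0, 7 had an unadjusted p under 0.05, and DESeq2 on the tested genes called 3 and limma voom 7, with Atg5, an autophagy gene, at a log2 fold change of 0.45 and Ctsl, a lysosomal protease gene, at -0.38. For 21 PPAR alpha targets of fatty acid oxidation edgeR called 0, 4 had an unadjusted p under 0.05, DESeq2 called 2 and limma voom 4, with Acadm, a dehydrogenase of beta-oxidation, at 0.36 and Cpt1a, which admits fatty acids to mitochondria, at -0.27. For 21 genes of the lipogenic programme edgeR called 0, 5 had an unadjusted p under 0.05, DESeq2 called 1 and limma voom 5, with Pparg, a nuclear receptor gene of fat storage, at 0.90.

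**Figure D5:**
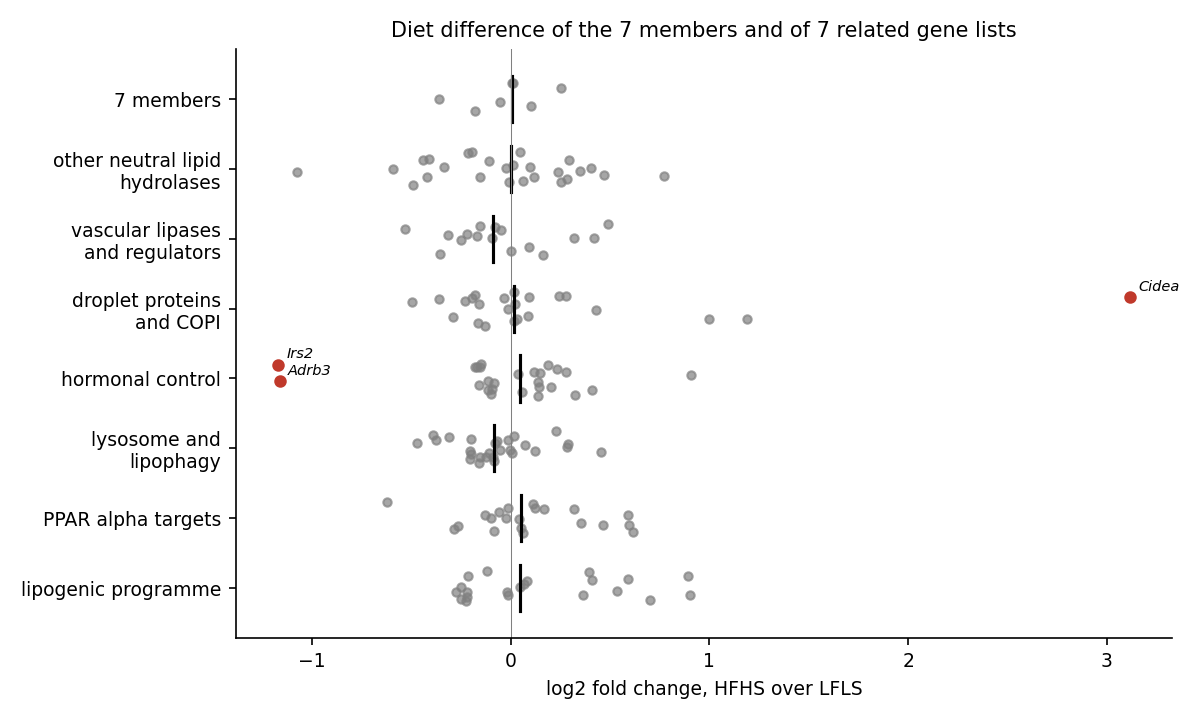
Log2 fold change of HFHS over LFLS for the 7 genes and for each tested gene of 7 related lists, 1 point per gene, with the median as a black bar. Genes called by edgeR are red and named: Cidea at 3.11, Irs2 at -1.17 and Adrb3 at -1.16.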

How the data were processed

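Per the submitters' processing notes, CASAVA 1.8, TopHat, Bowtie and DESeq were used with build mm9. The sources used here do not give the counting tool, annotation release or strand setting. The deposited counts were whole numbers per Ensembl gene with a minimum of 1, which 11120 genes held in all libraries. The results table deposited by the authors held signal values (group means of counts divided by size factors), their ratio as a fold change, the log2 of that ratio, and p-value and adjusted p-value columns, per the file headers. Its first group was taken as LFLS because its means matched LFLS means recomputed from the counts.

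Of the deposited values only counts entered the tests. edgeR 4.0.16 in R 4.3.3 fitted diet alone, with TMM scaling, its default filter and the quasi-likelihood F test, and a gene was called at an adjusted p (Benjamini-Hochberg) under 0.05. The fit was tested on simulated data. Limma 3.58.1, DESeq2 1.42.0 and other settings were alternatives. Correlations used log2 CPM (prior count 2) and 100000 permutations in SciPy 1.17.1. Transcript lengths and GC came from GENCODE M21 by Ensembl identifier, and its build differs from mm9. GC was used for the GC offset of an alternative fit and for removing the GC trend of each library. Names of the counted genes were those of the deposited results table. Promoters came from RefSeq, where all 7 genes matched.

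The 7 genes, the gene lists and the tests were chosen with earlier results of these data known. Named genes are the 7, up to 4 genes per list with the smallest p, and the 2 genes most correlated with each of the 7. For the hydrolases, all genes with an unadjusted p under 0.05 are named. Genes that DESeq2 called below the filter were named after their values were seen.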

Additional observations from a re-analysis of the deposited data

Results flagged for a closer look

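Pnpla2 in LFLS 1 stood at 156 CPM, farther above the next LFLS library than the spread of the others allows by Dixon's 95% limit. Chance alone gives such a value in about 1 in 20 groups, and 14 groups (7 genes in 2 diets) were looked at.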

How the results depend on the processing

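Of 28 alternatives, 1 called a member: limma voom called Pnpla2 (-0.33), so its count of called members was 1. The same setting called 19.0% of all genes. Leaving out each library in turn called 0 of the 7 each time. The sign of small differences depended on the setting. Abhd5 was -0.080 with DESeq2, -0.043 with limma, -0.011 without a filter, -0.072 with the GC offset and -0.050 in number 2 libraries. Pnpla3 was -0.074 with DESeq2, -0.0056 without a filter, -0.0395 with the pancreas score as covariate and -0.051 in number 2 libraries. Lipe was -0.046 with DESeq2 and -0.12 in number 1 libraries, and Mgll was 0.064 with the GC offset and 0.30 in number 2 libraries. Leaving out 1 library moved Abhd5 between -0.034 and 0.051, Pnpla3 between -0.085 and 0.17 and Mgll between -0.10 and 0.014. DESeq2 over the whole table moved the median of all genes to -0.11, and on the tested genes, a setting chosen after seeing the data, to -0.0086.

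Over all genes the number called was 276 with DESeq2, 1258 with DESeq2 on the tested genes, 3274 with limma, 173 without a filter, 1540 with the title number as a block, 1484 in number 1 libraries and 269 in number 2 libraries, and 133 to 853 with 1 library left out. For the 7 lists together it was 8 and 18 with DESeq2, 37 with limma, 5 with library totals, 1 without a filter, 19 with the title number block, 9 with the block of title pairs, 9 with the GC offset, 12 in number 1 libraries and 1 to 7 with 1 library left out. The share of all genes called was 1.28% and 7.3% with DESeq2, 19.0% with limma, 3.08% with library totals and 0.651% without a filter. It was 8.94% with the title number block, 3.47% with the pair block, 3.77% with the GC offset and 2.5% with the pancreas covariate. Number 1 libraries gave 8.49%, number 2 libraries 1.58% and fits without 1 library 0.766% to 4.89%. Counts by list below are to be read against these shares.

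By list, hydrolases had 5 and 2 with DESeq2, 10 with limma, 5 with the number block, 3 with the pair block, 3 in number 1 and 1 in number 2. Vascular lipases had 1 with DESeq2 on tested genes, 2 with limma, 2 with the number block, 1 with the pancreas covariate and 1 in number 1. Droplet proteins had 7 with DESeq2 on tested genes, 5 with limma, 0 without a filter and 4 with the number block. Hormonal control had 4 with limma, 1 without a filter and 1 in number 2. Lysosomal genes had 3 with DESeq2 on tested genes, 7 with limma, 1 with library totals, 4 with the number block, 1 with the pair block, 4 with the GC offset and 5 in number 1. PPAR alpha targets had 2 with DESeq2 on tested genes, 4 with limma and 1 each with library totals, the number block, the GC offset and number 2. Lipogenic genes had 1 with DESeq2 on tested genes, 5 with limma, 1 with the number block, 2 with the pair block and 1 with the GC offset. With 1 library left out, hormonal control had 1 to 2, droplet proteins 0 to 2 and the other lists 0 to 1.

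The diet by title number interaction had 152 calls with edgeR and 0 with DESeq2. The count of correlated pairs was 0 both from diet means alone and with the GC trend removed. From diet means alone r was 0.23 for Pnpla3 and Abhd5, -0.086 for Pnpla3 and Lipa, -0.20 for Abhd5 and Lipa and 0.39 for Lipe and Mgll. With the GC trend removed, chosen after seeing the data, r was -0.039 for Pnpla2 and G0s2, -0.22 for Pnpla2 and Mgll, 0.26 for Pnpla3 and Abhd5, 0.042 for Abhd5 and Mgll and -0.012 for Abhd5 and Lipa. The cause of these shifts was not tested. The title pairs were not shown to pair mice: deviations correlated at -0.069 to 0.41, with 4 of 7 pairs above 0.1, and 3 of 7 HFHS libraries were most like their own pair. With either replicate block 0 of the 7 members were called. With 7 mice per diet, intervals of Pnpla2, G0s2, Pnpla3, Lipe and Lipa leave room for differences of over 0.4 on the log2 scale.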
